A study of Mus musculus with 2 samples.

Results

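Serpins are a superfamily of proteins that share 1 fold and mostly inhibit serine proteases. An inhibitory serpin offers an exposed reactive center loop as bait, the protease cuts it, and the serpin snaps into a new shape that traps the protease. The residue just before the cut, called P1, largely sets which protease is caught. The liver makes most plasma serpins, including α1-antitrypsin, antithrombin and C1 inhibitor, while the serpins of clade B stay largely inside cells and a few members carry hormones or fold collagen. The members described here were the protein-coding genes whose symbol is Serpin, a clade letter from a to i and a number, with or without a copy letter, which gave 61 of the 35275 genes in the table and of its 22026 protein-coding genes.

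Liver RNA of 2 groups of FVB mice was sequenced, and each group was 1 library made from 3 pooled mice. S1a/Ctrl mice carried *Alb*-Cre and a Rosa26 loxP-stop-loxP rtTA allele, each on 1 chromosome, and a *PEPCK* promoter-driven, constitutively active fragment of human SREBP1a, a transcription factor of lipid synthesis. S1a/ETP mice carried all of these and the TRE-ETP transgene, through which hepatocytes on doxycycline make mouse endotrophin, the C-terminal piece cleaved from collagen VI α3. All mice ate a diet with 200 mg/kg doxycycline, begun at 6 weeks of age and kept up for 10 months, and are labelled as 12 months old. The mice were littermates, and *Alb*-Cre confines rtTA to hepatocytes. The table holds FPKM, fragments scaled to gene length and library depth, and these came out as whole reads at a depth of 19245078 for S1a/Ctrl and 14538808 for S1a/ETP.

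With 1 library per group there is no replicate check, no p-value was computed, and a difference compares 2 pools. Each value below is the FPKM in S1a/Ctrl and then in S1a/ETP, and each ratio is the log2 of S1a/ETP over S1a/Ctrl after adding 0.1 FPKM to both, which understates the change of low genes. The range in square brackets is a 95% interval (Clopper-Pearson, exact) computed on the reads, and it covers counting error only. The hepatocyte list of 8 genes matched the labelled tissue, with *Alb* at 31534 and 31035 FPKM. It summed to 65594 and 56497 FPKM, and 7 of its 8 genes had an interval below 0 (median −0.29). So did 596 of the 1263 genes averaging 50 FPKM or more (median −0.05). Neutrophil genes stood at a sum of 6.16 and 355 FPKM, and skeletal muscle genes at 79.6 and 0.449 FPKM. Endothelial genes summed to 36.0 and 36.9 FPKM, mast cell genes to 0.789 and 0.127 and pancreatic acinar genes to 0.258 and 0 FPKM. The sums of bile duct (133 and 192 FPKM), squamous epithelium (10.0 and 18.2) and B and plasma cell genes (4.83 and 9.01) each rested mainly on 1 gene, *Spp1* (127 and 188), *Sprr1a* (8.19 and 17.1) and *Igj* (3.36 and 7.55), and the median bile duct ratio was −0.48. Platelet genes summed to 4.56 and 7.34 FPKM and stellate cell and fibroblast genes to 136 and 154 FPKM. Neutrophil and skeletal muscle genes thus stood far apart in the pools. In bulk liver, fewer cells of a type and less RNA per cell cannot be told apart.

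Most serpins of this liver differed by less than 2-fold between the pools, and among the abundant ones the lowest ratios were those of *Serpina1c* and *Serpina1a*, copies of the α1-antitrypsin gene, followed by *Serpina6*. Of the 61 members, 34 had a mean of at least 0.1 FPKM, 8 had reads but stayed below that, and 19 had none. Of the 34, 3 were at least 2-fold higher in S1a/ETP (among them *Serpina3j* and *Serpina3g*). At least 2-fold lower were 4 (*Serpina1c*, *Serpina1a*, *Serpine2* and *Serpine3*), and 27 lay within 2-fold. *Serpina3j* passed the minimum through S1a/ETP alone and *Serpine3* through S1a/Ctrl alone, so each could differ only in that direction. Among all 16042 genes past the same minimum, 6.42% reached 2-fold higher and 6.25% reached 2-fold lower, and both counts of serpins are small and near that background. An interval wholly above 0 was found for 11 of the 34 and one wholly below 0 for 10, beside 22.4% and 17.5% of all genes. Intervals narrow as reads rise, and many serpins are abundant. Among the 15 serpins averaging 50 FPKM or more, 3 were above and 7 below, beside 382 and 596 of the 1263 genes at that level. The median ratio of the 34 serpins was 0.04, and that of all genes past the minimum was 0.03.

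Among the abundant serpins the 2-fold count rested on Serpina1 copies. Of the 15 serpins averaging 50 FPKM or more, 2 (*Serpina1c* and *Serpina1a*) were at least 2-fold lower and 0 were as much higher, where 1.74% and 1.19% of the 1263 genes at that level were. These 2 copies are 98.5% identical in coding sequence and can share reads, so they are not independent members. No test was run, since each group is 1 library, and the level of 50 FPKM was chosen after the values were seen. All serpins together took 1.12% [1.11, 1.12] of the reads of S1a/Ctrl and 0.975% [0.970, 0.980] of those of S1a/ETP. Their summed level was 6024 and 5072 FPKM. Without the Serpina1 copies it was 3668 and 3655 FPKM, so these copies held nearly the whole difference.

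**Figure D1:**
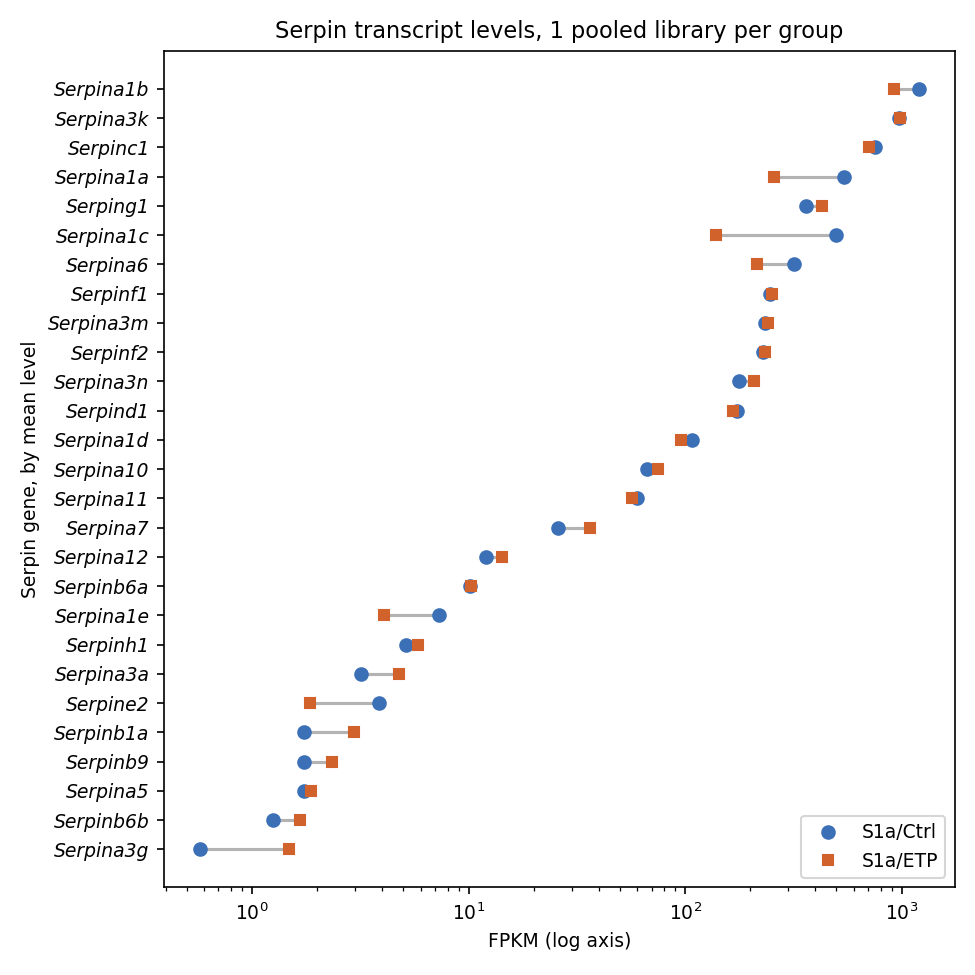
FPKM (log axis) of 27 serpins averaging 1 FPKM or more, ordered by mean, with circles for S1a/Ctrl and squares for S1a/ETP, each 1 library of 3 pooled mice. Most pairs of points nearly coincide, while *Serpina1a* moves from 541 to 256 FPKM and *Serpina1c* from 500 to 139 FPKM.

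**Figure D2:**
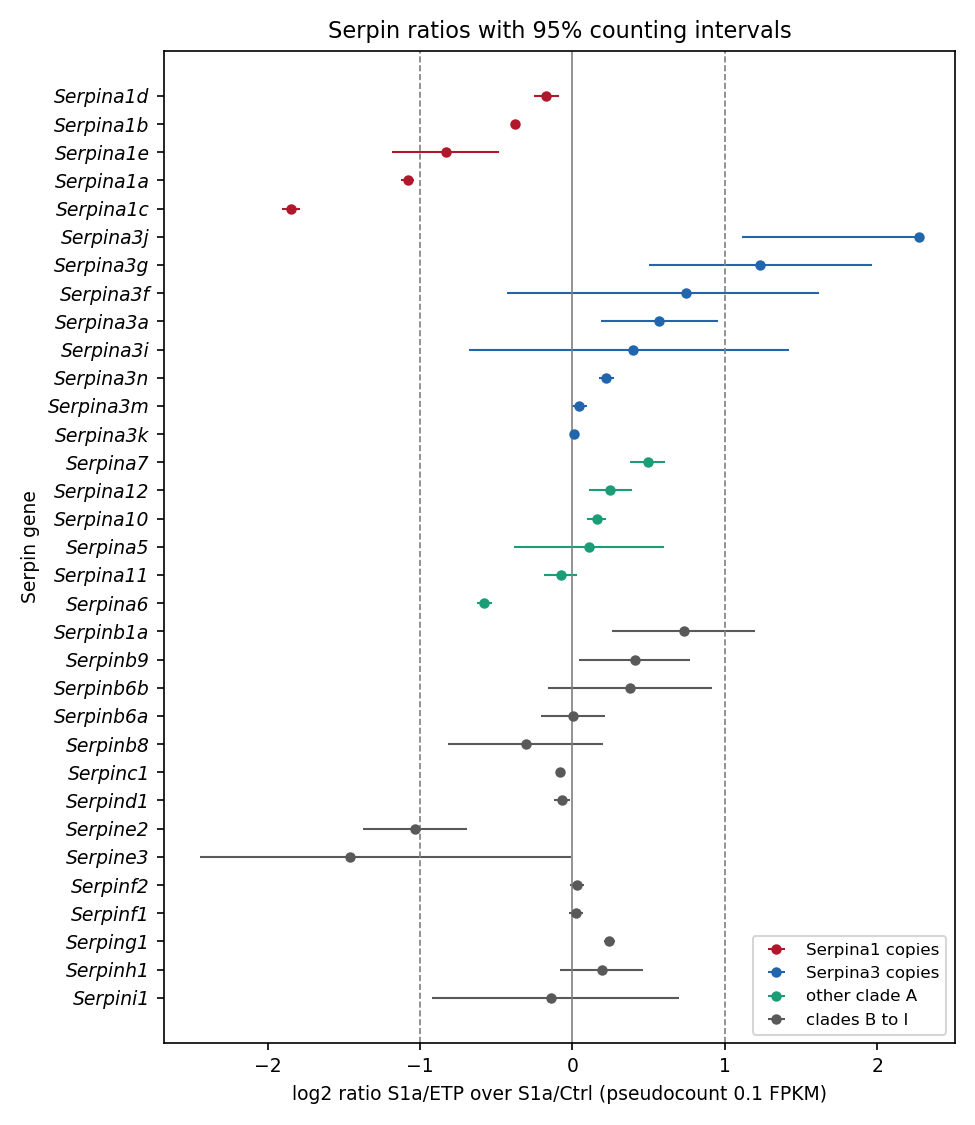
Log2 ratios of 33 serpins that passed the minimum of 0.1 FPKM and their 95% counting intervals, grouped as Serpina1 copies, Serpina3 copies, other clade A genes and clades B to I, with dashed lines at 2-fold. All 5 Serpina1 copies lie below 0, and *Serpina3j*, with no read in S1a/Ctrl, has an interval that ends at its own ratio.

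α1-antitrypsin, the main plasma inhibitor of neutrophil elastase, comes from 1 gene in humans and from a set of near-identical Serpina1 copies in the mouse. The copies of the table differ in the reactive center loop as well. The bases below encode the loop from 6 residues before P1 to 5 after it and are shown because they meet the protease, although most of the bases that differ between the copies lie elsewhere in the coding sequence. They were read from the GENCODE M21 transcripts (GRCm38), on the minus strand of chromosome 12, with the codon of P1 in capitals. They lie at chr12:103728338-103728373 for *Serpina1b*, chr12:103763776-103763811 for *Serpina1d*, chr12:103853771-103853806 for *Serpina1a*, chr12:103895108-103895143 for *Serpina1c* and chr12:103947114-103947149 for *Serpina1e*, in each case within 1 coding exon.
Serpina1b: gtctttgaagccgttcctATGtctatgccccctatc
Serpina1a: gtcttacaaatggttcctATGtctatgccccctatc
Serpina1c: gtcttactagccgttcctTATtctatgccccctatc
Serpina1d: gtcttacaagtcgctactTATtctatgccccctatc
Serpina1e: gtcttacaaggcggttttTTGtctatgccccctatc
P1 is methionine in *Serpina1a* and *Serpina1b*, tyrosine in *Serpina1c* and *Serpina1d* and leucine in *Serpina1e*. Methionine at P1 is the residue of human α1-antitrypsin. All 5 loops end in the same 15 bases, and between 4 and 8 of the 36 bases differ in any pair. The identity of the loops was 77.8% to 88.9%, against 96.3% to 98.5% over the whole coding sequences of the same 5 copies.

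All 5 measured copies were lower in the S1a/ETP pool, by very unequal amounts. *Serpina1b*, the most abundant, was at 1200 and 922 FPKM (40705 and 23632 reads), a log2 ratio of −0.38 [−0.40, −0.36]. *Serpina1a* was at 541 and 256 FPKM (16474 and 5885 reads), a ratio of −1.08 [−1.12, −1.04]. *Serpina1c* was at 500 and 139 FPKM (13100 and 2750 reads), a ratio of −1.85 [−1.91, −1.79]. It was 3.60-fold lower, the largest difference of any serpin averaging 1 FPKM or more. *Serpina1d* was at 108 and 95.5 FPKM, a ratio of −0.17 [−0.26, −0.09]. *Serpina1e* was at 7.29 and 4.06 FPKM (221 and 93 reads), a ratio of −0.83 [−1.19, −0.48]. *Serpina1f*, whose coding sequence is only 56.6% to 57.7% identical to the others, had no read. The residue at P1 did not sort the ratios, since *Serpina1c* and *Serpina1d* share tyrosine and stood at −1.85 and −0.17.

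The summed level of the copies was 2357 and 1417 FPKM, a ratio of −0.73 [−0.75, −0.72]. The mix of copies also differed between the pools. *Serpina1b* took 55.5% [55.1, 55.8] of the copies' reads in the S1a/Ctrl pool and 68.9% [68.4, 69.4] in the S1a/ETP pool. *Serpina1c* took 17.9% [17.6, 18.1] and 8.02% [7.73, 8.31], and *Serpina1a* took 22.4% [22.1, 22.8] and 17.2% [16.8, 17.6]. Without *Serpina1b* the summed ratio was −1.23, so the size of the family's difference depends on its most abundant copy. Beside it, the median ratio of the hepatocyte genes was −0.29, and the part of a general hepatocyte difference in the Serpina1 values was not tested.

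**Figure D3:**
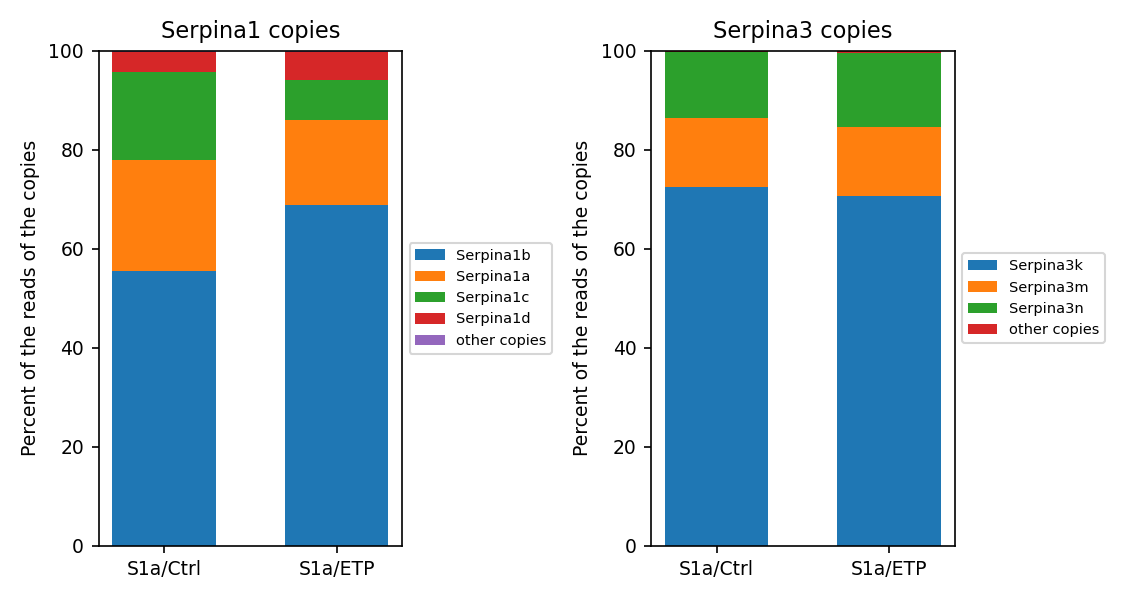
Percent of the reads of the Serpina1 copies (left) and of the Serpina3 copies (right) that each copy took in the S1a/Ctrl and S1a/ETP libraries, with copies under 1% in both grouped as other copies. *Serpina1c* narrows from 17.9% to 8.02% while *Serpina1b* widens from 55.5% to 68.9%, and the Serpina3 bars are nearly alike.

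Values of single Serpina1 copies are uncertain, because reads can fit more than 1 of them. Of all 100-base windows of the transcript, 30.7% occurred in no other gene for *Serpina1c*, 50.1% for *Serpina1a*, 70.7% for *Serpina1d*, 79.4% for *Serpina1b* and 85.2% for *Serpina1e*. In the same order the ratios were −1.85, −1.08, −0.17, −0.38 and −0.83, so *Serpina1c* and *Serpina1a*, with the fewest windows of their own, also had the lowest ratios. The span of *Serpina1b* in the table (chromosome 12, 103728156 to 103830373) also encloses that of *Serpina1d* on the same strand. The number of Serpina1 genes is known to vary between mouse strains, the mice were FVB and the reference is C57BL/6J, and how reads of FVB copies were divided was not tested. Summed reads do not depend on how reads were divided among the copies, and their ratio was −0.69. The summed FPKM does, because the copies differ in length (*Serpina1c* 1361 and *Serpina1b* 1762 bases), and its ratio was −0.73. Both depend on reads lost for fitting several genes and on the genes outside the sum. Each copy shared windows with 5 or 6 other genes of the annotation.

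The promoters of the copies are nearly as alike as their coding sequences. In RefSeq (GRCm38.p6) the 250 bases before the transcript start were 92.1% to 98.0% identical among *Serpina1a* to *Serpina1e*, over the bases that aligned. These were 188 to 199 bases in pairs with *Serpina1e* and 238 to 248 in the other pairs. The last 100 bases before the start are shown for *Serpina1b* and *Serpina1c*, the copies with the highest level and the lowest ratio, on the minus strand at chr12:103738190-103738289 and chr12:103904951-103905050. Capitals mark GTTAAT, the leading part of the site of the hepatocyte factor HNF1, a motif added after the sequences were seen.
Serpina1b: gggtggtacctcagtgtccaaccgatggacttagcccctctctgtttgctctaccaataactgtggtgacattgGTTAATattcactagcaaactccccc
Serpina1c: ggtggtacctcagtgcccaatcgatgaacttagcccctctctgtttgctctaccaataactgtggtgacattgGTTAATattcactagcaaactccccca
All 5 copies hold GTTAAT on either strand of their 250 bases, as 6.43% of all 32851 promoter windows do. None of the 5 holds TTCNNNGAA (STAT), TTGCGCAA (C/EBP), GAANNTTC (heat shock) or TATAAA. Of the 27 serpins past the minimum that have a promoter window, 7 hold GTTAAT. These are the 5 copies, *Serpina7* (ratio 0.49) and *Serpinb8* (ratio −0.30). A match is a description of the letters, and GTTAAT is shared by copies at ratios from −0.17 to −1.85.

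The Serpina3 copies, which in the mouse stand for the single human α1-antichymotrypsin gene, did not share the lower level. The abundant copies encode secreted inhibitors of kallikrein-like, chymotrypsin-like and granule proteases, and the loop differs from copy to copy. The loop bases of the 3 abundant copies are shown as the counterpart of the Serpina1 loops. They lie on the plus strand and come from the same transcripts, with the codon at the position counted as P1, 13 codons after the hinge, in capitals.
Serpina3k (chr12:104345293-104345328): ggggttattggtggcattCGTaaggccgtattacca
Serpina3m (chr12:104393793-104393828): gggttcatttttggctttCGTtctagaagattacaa
Serpina3n (chr12:104413472-104413507): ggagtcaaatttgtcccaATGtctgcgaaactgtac
The counted codon is arginine in *Serpina3k* and *Serpina3m* and methionine in *Serpina3n*, and whether a protease cuts after it was not examined. *Serpina3k* and *Serpina3m* are 91.8% identical over their coding sequences, the highest value among the Serpina3 copies.

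*Serpina3k* was at 976 and 984 FPKM, a ratio of 0.01 [−0.01, 0.03], and its sign turned when the libraries were rescaled to a median ratio of 0. *Serpina3m* was at 233 and 241 FPKM, a ratio of 0.04 [−0.005, 0.09]. *Serpina3n*, an inhibitor of leukocyte elastase and granzyme B that is induced in the acute phase, was at 178 and 207 FPKM, a ratio of 0.22 [0.17, 0.27]. The 3 abundant copies thus differed by at most 1.17-fold between the pools. The summed Serpina3 level was 1391 and 1438 FPKM, a ratio of 0.05 [0.03, 0.07], and *Serpina3k* took 72.5% and 70.7% of the reads. Of the 100-base windows of these transcripts, 95.1% of *Serpina3k* and 93.9% of *Serpina3m* occurred in no other gene, although the table gives both genes the same start (chromosome 12, 104338486).

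The rare Serpina3 copies were at or below 5 FPKM, and 2 of them were at least 2-fold higher. *Serpina3g*, an inhibitor of lysosomal cysteine cathepsins in lymphoid and myeloid cells, was at 0.576 and 1.49 FPKM (20 and 39 reads), a ratio of 1.23 [0.50, 1.96]. *Serpina3j* went unread in S1a/Ctrl and reached 0.383 FPKM (12 reads) in S1a/ETP, a ratio of 2.27 [1.11, 2.27]. With the empty library set to 3 reads and the 12 reads taken as exact, it was 5.29-fold higher. *Serpina3a* was at 3.17 and 4.76 FPKM (105 and 119 reads), a ratio of 0.57 [0.19, 0.95]. These 3 copies had an interval above 0, on few reads. *Serpina3i* (7 and 8 reads) and *Serpina3f* (3 and 6 reads) had intervals spanning 0, at ratios of 0.40 and 0.74. *Serpina3c* (3 and 3 reads) and *Serpina3b* (1 and 2 reads) were below the minimum level. Beside *Serpina3g*, the macrophage genes summed to 97.0 and 133 FPKM (7 of 8 with an interval above 0) and the neutrophil genes to 6.16 and 355 FPKM, and their part in the ratio was not tested.

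The last 100 bases before the start of *Serpina3g* (plus strand, chr12:104236047-104236146) and of *Serpinb6a* (minus strand, chr13:34002795-34002894) both hold the STAT motif and are shown as genes with a high and a level ratio, with TTCNNNGAA in capitals (RefSeq, GRCm38.p6). *Serpina11* holds it there too, at a ratio of −0.08.
Serpina3g: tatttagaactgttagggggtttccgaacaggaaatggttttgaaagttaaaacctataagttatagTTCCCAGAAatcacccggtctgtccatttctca
Serpinb6a: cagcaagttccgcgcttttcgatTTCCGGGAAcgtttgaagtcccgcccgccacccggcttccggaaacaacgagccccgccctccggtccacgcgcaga
A RefSeq window was found for 52 of the 61 serpins and for 27 of the 34 past the minimum. Each of these 27 was counted by 1 window, while the shares are over all windows. Of the 27, 5 hold TTCNNNGAA in 250 bases (*Serpina3f*, *Serpina3g*, *Serpina3i*, *Serpina11* and *Serpinb6a*), and 7.02% of all windows do. The ratios of these 5 genes ran from −0.08 to 1.23. *Serpinb6a* also has a window at another start, and that window lacks TTCNNNGAA. TATAAA is in 3 of the 27 (12.4% of all windows), and TTGCGCAA (0.164%) and GAANNTTC (6.69%) are each in 1, *Serpina5*. *Serpina3f* likewise has a further window, which lacks TATAAA.

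The Serpina1 and Serpina3 copies lie in 1 cluster of clade A genes on chromosome 12, from the start of *Serpina10* at 103614786 to the end of *Serpina3n* at 104414329 in the table's mm10 coordinates. Of its 12 members on the minus strand, 9 passed the minimum and 7 of these had a ratio below 0, with a median of −0.38. Among these 7 were the 5 near-identical Serpina1 copies. Of its 10 members on the plus strand, 9 passed and all 9 had a ratio above 0, with a median of 0.40. For *Serpina5*, *Serpina3f*, *Serpina3i*, *Serpina3k* and *Serpina3m* the interval spanned 0. *Serpina3j* and *Serpina3f* were under the minimum in S1a/Ctrl and passed through S1a/ETP alone, so they could only lie above 0. Among all genes past the minimum, 8541 of 16042 were above 0. The plus-strand value of *Serpina3k* turned below 0 under the rescaling named above. Among the cluster's pseudogenes, *Serpina4-ps1* on the plus strand was at 20.1 and 7.96 FPKM (497 and 149 reads), a ratio of −1.32 [−1.59, −1.06]. *Serpina3h*, annotated as a pseudogene and also on the plus strand, was at 0.587 and 1.17 FPKM, with an interval spanning 0.

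**Figure D4:**
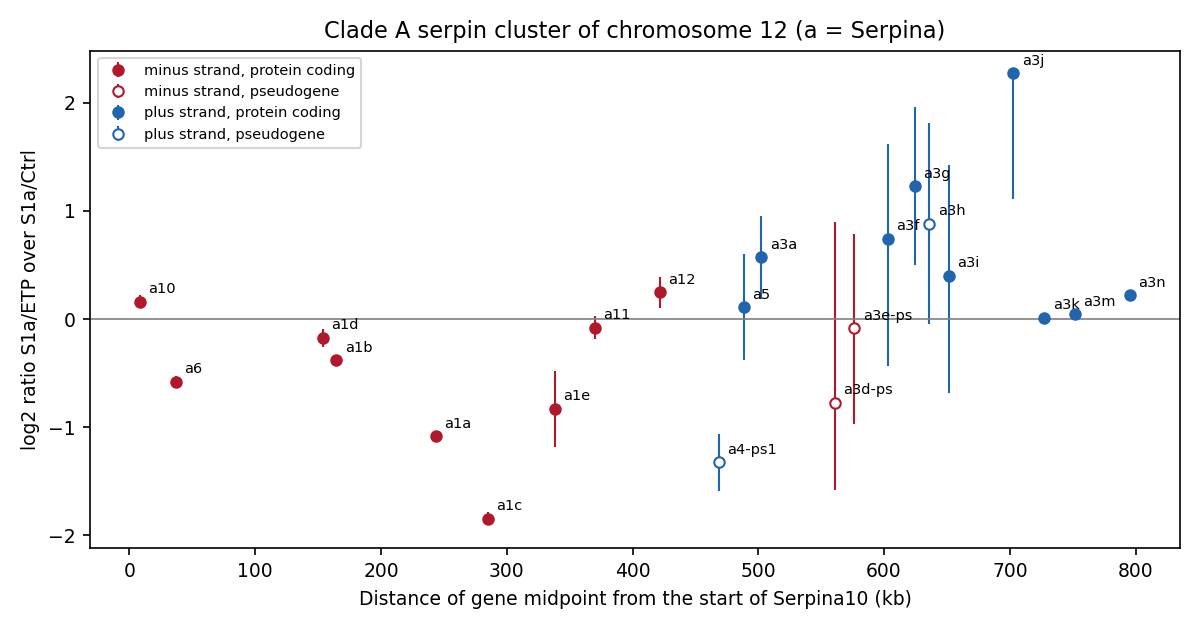
Log2 ratios with 95% counting intervals of the genes of the chromosome 12 cluster that passed the minimum of 0.1 FPKM, plotted against the distance of the gene midpoint from the start of *Serpina10* (kb), with red for the minus strand, blue for the plus strand and open circles for pseudogenes. The Serpina1 copies all lie below 0, lowest at *Serpina1c* with −1.85, and the protein-coding genes of the plus strand lie at or above 0.

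Among the clade A serpins that carry hormones, which do not inhibit proteases, values went both ways. *Serpina6*, the corticosteroid-binding globulin, was at 319 and 214 FPKM (9864 and 4990 reads), a ratio of −0.58 [−0.63, −0.53]. *Serpina7*, the thyroxine-binding globulin, encoded on chromosome X, was at 25.9 and 36.5 FPKM (1162 and 1237 reads), a ratio of 0.49 [0.38, 0.61]. Both differences stayed under 2-fold and exceeded counting error, in opposite directions. *Agt*, the angiotensin precursor and a clade A serpin that the symbol rule does not take, was at 182 and 180 FPKM, a ratio of −0.01 [−0.07, 0.04]. *Serpina12*, or vaspin, best known as an adipose serpin, was at 12.0 and 14.3 FPKM, a ratio of 0.25 [0.11, 0.39]. *Serpina11*, of unsettled function, was at 60.1 and 57.0 FPKM, a ratio of −0.08 [−0.19, 0.03], and *Serpina9*, a serpin of germinal center B cells, had no read.

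The serpins that hold coagulation and plasmin in check were abundant and close to level. *Serpinc1*, or antithrombin, the main plasma inhibitor of thrombin and factor Xa, was at 751 and 709 FPKM (31175 and 22246 reads), a ratio of −0.08 [−0.11, −0.06]. *Serpind1*, or heparin cofactor II, which inhibits thrombin, was at 174 and 166 FPKM, a ratio of −0.07 [−0.12, −0.02]. *Serpinf2*, or α2-antiplasmin, was at 229 and 233 FPKM, a ratio of 0.03 [−0.02, 0.07]. None of the 3 moved by more than 1.06-fold. *Serpina10*, the protein Z-dependent inhibitor of factor Xa, was at 66.7 and 74.6 FPKM, a ratio of 0.16 [0.10, 0.22]. *Serpina5*, the protein C inhibitor, which mouse liver hardly makes, was at 1.73 and 1.88 FPKM, with an interval spanning 0. As TPM, *Serpind1* turned above 0 and *Serpinc1* was at −0.01.

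The proteases of coagulation and fibrinolysis were close to level too. Of 11, none was 2-fold different, 3 had an interval above 0 and 5 below it, and the median ratio was 0.01. Interval counts of this and the later lists stand beside 22.4% above and 17.5% below 0 among all genes past the minimum. Among the 1263 genes averaging 50 FPKM or more, 382 were above and 596 below. *Proc*, the anticoagulant protein C, was at 299 and 231 FPKM, a ratio of −0.37 [−0.42, −0.32]. *Plg*, the plasmin precursor, was at 521 and 507 FPKM, a ratio of −0.04 [−0.06, −0.01]. *Klkb1*, plasma prekallikrein, had a ratio of −0.36 [−0.65, −0.09] and *F11* one of −0.33 [−0.47, −0.19]. The cofactors and clearance receptors of serpins had a median of 0.11 over 8 genes, none 2-fold different. *Vtn*, the plasma adhesion protein vitronectin, was at 1026 and 1056 FPKM, a ratio of 0.04 [0.02, 0.06]. *Sdc1*, a heparan sulfate proteoglycan of hepatocytes, had a ratio of 0.57 [0.51, 0.64] and the lipoprotein receptor gene *Vldlr* one of −0.55 [−0.81, −0.29].

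In clade E, *Serpine2* and *Serpine3* were at least 2-fold lower, both at low levels. *Serpine2* encodes protease nexin-1, a cell-bound inhibitor of thrombin, urokinase and plasmin. *Serpine2* was at 3.87 and 1.84 FPKM (253 and 91 reads), a ratio of −1.03 [−1.38, −0.69], which came to less than 2-fold as TPM. *Serpine3*, of unsettled function, was at 0.445 and 0.0981 FPKM (12 and 2 reads), a ratio of −1.46 [−2.44, −0.01], and passed the minimum through S1a/Ctrl alone. With a pseudocount of 1 FPKM neither reached 2-fold. Beside the lower *Serpine2* and *Serpine3*, 7 of 8 skeletal muscle genes had no read in S1a/ETP (79.6 and 0.449 FPKM in sum), *Tnnc2* among them having none in S1a/Ctrl either, lung genes summed to 13.5 and 4.24 FPKM (3 of 4 with an interval below 0, *Scgb1a1* at 0 in S1a/ETP) and mesothelium genes to 6.76 and 2.49 FPKM (2 of 4). Stellate cell and fibroblast genes went the other way, at 136 and 154 FPKM in sum (5 of 8 with an interval above 0), and endothelial genes stood at 36.0 and 36.9 FPKM. The part of any of these cells and tissues in the *Serpine2* and *Serpine3* values was not tested.

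*Serping1*, or C1 inhibitor, blocks the first proteases of the complement cascade as well as plasma kallikrein and factor XIIa. It was at 363 and 429 FPKM (12349 and 11037 reads), a ratio of 0.24 [0.21, 0.28], the highest ratio among the 15 serpins averaging 50 FPKM or more. The C1 and lectin pathway proteases it inhibits had a median ratio of −0.10 over 6 genes, 1 with an interval above 0 and 3 below. *C1s1* was at 79.5 and 74.9 FPKM, a ratio of −0.09 [−0.15, −0.02], *C1ra* had a ratio of −0.24 [−0.32, −0.17] and *Masp1* one of 0.23 [0.09, 0.36]. *C1rb* was at 3.02 and 2.58 FPKM, with an interval spanning 0.

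A pair of serpins with other roles had intervals spanning 0. *Serpinf1*, the secreted pigment epithelium-derived factor, limits vessel growth and does not inhibit proteases. It was at 247 and 251 FPKM, a ratio of 0.02 [−0.02, 0.07], and turned below 0 under the rescaling to a median of 0. *Serpinh1*, or HSP47, a chaperone of the endoplasmic reticulum that folds procollagen, was at 5.13 and 5.87 FPKM (236 and 204 reads), a ratio of 0.19 [−0.08, 0.46]. The collagen chains and folding enzymes it works with were higher in 13 of 16 genes, 12 with an interval above 0, at a median of 0.37 and none 2-fold different. That median lies inside the *Serpinh1* interval. Among all genes past the minimum, 22.4% had an interval above 0. *Col1a1* was at 2.49 and 4.98 FPKM, a ratio of 0.97 [0.76, 1.19], *Col1a2* at 5.03 and 8.91 FPKM, a ratio of 0.81 [0.65, 0.98], and *Col4a1* had a ratio of 0.75 [0.62, 0.88]. *P4hb*, a subunit of the collagen prolyl hydroxylase, was at 363 and 486 FPKM, a ratio of 0.42 [0.39, 0.45]. *Serpini1*, the neuronal serpin neuroserpin, had 11 and 7 reads, and *Serpini2*, a serpin of the pancreas, had none.

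Clade B, the largest with 27 members, was almost silent in this liver. Of these, 16 had no read, 6 had at most 3 reads in both libraries together and 5 passed the minimum. *Serpinb6a*, an intracellular inhibitor of trypsin-like proteases and of cathepsin G, was the most abundant and level, at 10.2 and 10.2 FPKM (430 and 326 reads), a ratio of 0.01 [−0.20, 0.21] whose sign turned under the rescaling to a median of 0. *Serpinb1a*, the inhibitor of neutrophil elastase, proteinase 3 and cathepsin G, was at 1.73 and 2.94 FPKM (64 and 82 reads), a ratio of 0.73 [0.26, 1.20]. *Serpinb9*, the inhibitor of granzyme B, was at 1.74 and 2.34 FPKM (116 and 118 reads), a ratio of 0.41 [0.04, 0.77]. *Serpinb6b* was at 1.26 and 1.66 FPKM and *Serpinb8*, which inhibits furin in humans, at 0.783 and 0.616 FPKM, both with intervals spanning 0. *Serpinb1a* and *Serpinb9* were thus the clade B genes with an interval above 0, both under 2-fold. Neutrophils carry much *Serpinb1a*. All 8 neutrophil genes past the minimum were at least 2-fold higher, beside 6.42% of all genes past it. *Ngp*, *Camp* and *Mmp8* had no read in S1a/Ctrl, so they passed through S1a/ETP alone and could only be higher. The neutrophil list summed to 6.16 and 355 FPKM, and the part of neutrophils in the *Serpinb1a* value was not tested. Beside *Serpinb9*, genes of T and NK cells summed to 3.37 and 2.82 FPKM, with members in both directions. *Nkg7*, of cytotoxic granules, had 1 and 17 reads, a ratio of 3.17 [1.53, 3.89], *Trbc2*, of the T cell receptor, had 23 and 4 reads, a ratio of −1.93 [−3.43, −0.53], and *Klrb1c* was at 0 in both pools. Their part in the *Serpinb9* value was not tested. The squamous serpins *Serpinb5* and *Serpinb13* and the macrophage serpin *Serpinb2* were among the genes with no read.

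The granule proteases, the targets of several of these serpins, were rare, and the lower ratios among them had intervals spanning 0. Of 9 genes, 5 passed the minimum, of which 3 reached 2-fold higher and 1 reached 2-fold lower. *Elane* and *Ctsg* passed through S1a/ETP alone, so no median is read from the list. *Elane* is the neutrophil elastase that α1-antitrypsin inhibits. It went unread in S1a/Ctrl and reached 5.08 FPKM (68 reads) in S1a/ETP, a ratio of 5.70 [4.02, 5.70]. With the empty library set to 3 reads and the S1a/ETP reads taken as exact, it was 30.0-fold higher. *Prtn3*, or proteinase 3, was at 0.608 and 4.09 FPKM, a ratio of 2.57 [1.74, 3.42]. *Ctsg*, or cathepsin G, had 0 and 16 reads, a ratio of 3.58 [1.84, 3.58] (7.06-fold higher on the setting used for *Elane*). The mast cell tryptase *Tpsb2* had 11 and 2 reads, with an interval spanning 0. Both *Ctsg* and *Tpsb2* were named after their values were seen. The RNA level of the summed Serpina1 copies, at 1417 FPKM in S1a/ETP, stood far above that of *Elane* there on the same FPKM scale. Neither value gives an amount of protein, and the sum includes the copies with tyrosine or leucine at P1. The lysosomal cysteine cathepsins had a median of 0.25 over 7 genes, 5 with an interval above 0 and none 2-fold different. *Ctsl* was at 279 and 316 FPKM, a ratio of 0.18 [0.14, 0.22], and *Ctsz* at 211 and 274 FPKM, a ratio of 0.37 [0.32, 0.43]. *Ctss* had a ratio of 0.31 [0.15, 0.48] and *Ctsc*, which activates granule proteases, one of 0.27 [0.11, 0.43].

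Protease inhibitors of other families had a median ratio of 0.06 over the 19 of 20 that passed, close to the 0.04 of the serpins. Of the 19, 10 had an interval above 0 and 4 below. Most of the 19 averaged 50 FPKM or more, and of all 1263 such genes 382 were above and 596 below. *Slpi*, the secretory leukocyte protease inhibitor, which also blocks neutrophil elastase, was at 81.4 and 165 FPKM, a ratio of 1.02 [0.92, 1.12], and alone reached 2-fold. *Itih4*, an inter-α-trypsin inhibitor heavy chain of the acute phase, was at 397 and 647 FPKM, a ratio of 0.70 [0.68, 0.73]. *Mug1*, a plasma inhibitor of the α2-macroglobulin family, was at 435 and 235 FPKM, a ratio of −0.89 [−0.91, −0.86]. *Ahsg*, or fetuin-A, the most abundant of the list, was at 2855 and 2975 FPKM, a ratio of 0.06 [0.04, 0.07].

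The remaining lists cover steps that plasma serpins depend on. Among all genes past the minimum, 22.4% had an interval above 0 and 17.5% one below, and intervals narrow as reads rise. Genes of export and quality control in the endoplasmic reticulum had a median of 0.10 over 10 genes, all above 0 and 6 with an interval above 0. *Calr*, the lectin chaperone calreticulin, was at 243 and 290 FPKM, a ratio of 0.25 [0.21, 0.29]. *Syvn1*, the ubiquitin ligase that disposes of misfolded proteins, had a ratio of 0.30 [0.16, 0.44] and its partner *Sel1l* one of 0.23 [0.15, 0.31]. Genes of growth hormone signaling, which controls several male-pattern genes of mouse liver, had a median of −0.38 over 8 genes, 5 with an interval below 0 and none above. *Ghr*, the receptor, was at 120 and 97.3 FPKM, a ratio of −0.30 [−0.35, −0.26]. *Socs2*, a feedback inhibitor, was at 3.04 and 1.65 FPKM, a ratio of −0.84 [−1.17, −0.52]. *Igfals*, the carrier of IGF-1, had a ratio of −0.76 [−0.91, −0.61] and *Cish* one of −0.60 [−0.99, −0.21]. These values stand beside the lower Serpina1 copies, and a link between them was not tested.

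**Figure D5:**
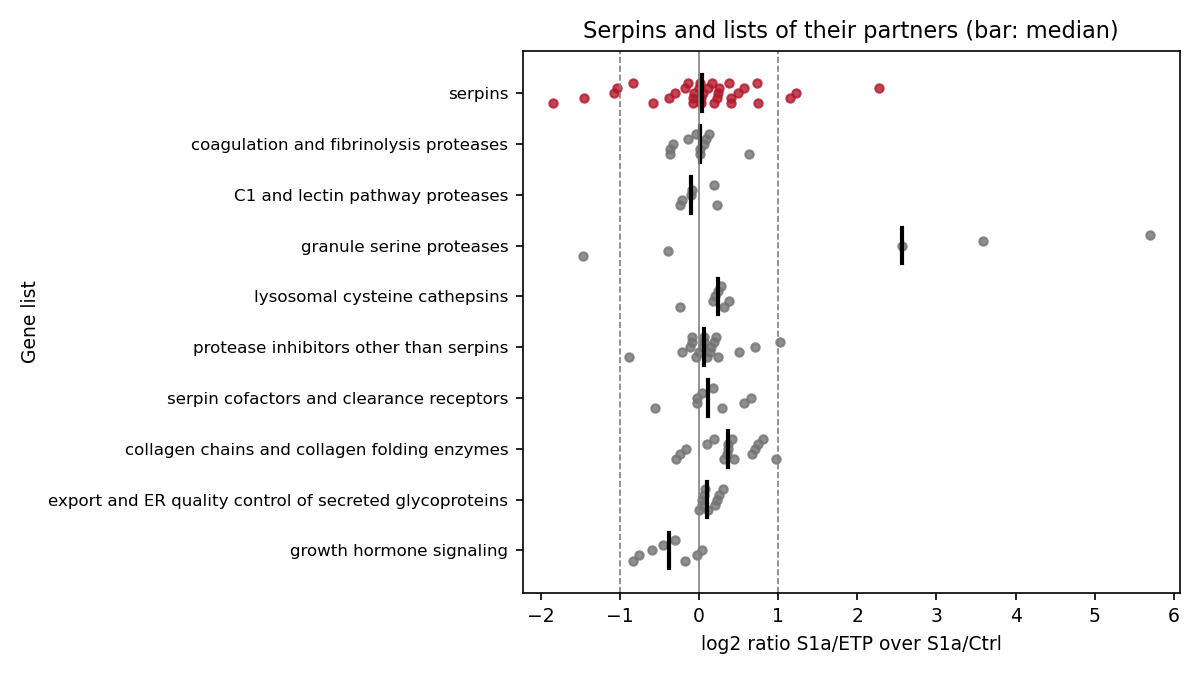
Log2 ratios of the 34 serpins (red) and of 9 lists of their targets, cofactors and related genes (grey) with a mean of at least 0.1 FPKM, with a black bar at the median and dashed lines at 2-fold. The serpins center on 0.04 with the Serpina1 copies to the left, granule proteases, of which *Elane* and *Ctsg* passed through S1a/ETP alone, reach the farthest right, and the growth hormone list centers on −0.38.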

How the data were processed

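Liver RNA was pooled from 3 mice per group and sequenced by Novogene, 1 library for each of the 2 groups. The values deposited by the authors are FPKM, in 1 table that also gives each gene's ID, symbol, type, length and mm10 position. Per the submitters' notes, edgeR 3.16.5, HTSeq 0.6.1, STAR and StringTie 1.3.3b were used, as were GATK 4.1, STAR-Fusion 1.5.0 and DESeq2, with no step named. The annotation release, the strand and the handling of reads that fit several genes are not stated. The members and lists (9 of pathways, 15 of cell types, 182 genes, 3 matched by ID) were chosen with earlier results of these data known.

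FPKM times length and depth gave whole reads for 100% of values within 0.01 reads. Ratios used a pseudocount of 0.1 FPKM, a minimum mean of 0.1 FPKM and a 2-fold size. A count test needs replicates and was not run. Named genes were serpins with a mean of at least 1 FPKM or 2-fold different, all Serpina1 and Serpina3 copies with reads, *Agt*, and of each pathway list the 3 largest ratios and the most abundant gene with a mean of at least 1 FPKM. Some genes that the rule takes are counted but not reported here by name. Cell type lists are given by sums and counts, and serpins and marker genes named for having no read stand outside the rule. Loops were read from GENCODE M21 transcripts, counting 13 codons from the conserved hinge residue to P1, in place of protein sequences, which were not used here, and promoters from RefSeq. Alternatives were other pseudocounts, filters, thresholds, scalings and sums. Steps were tested on simulated data. Python 3.11.15, numpy 2.4.6, pandas 2.3.3, scipy 1.17.1, biopython 1.88 and matplotlib 3.10.9 were used.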

Additional observations from a re-analysis of the deposited data

How the results depend on the processing

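The rescalings shifted log2 ratios by −0.03 (median ratio of 0), 0.07 (TPM) and 0.03 (without the 100 most abundant genes). The summed Serpina1 ratio of −0.73 was then −0.76, −0.66 and −0.70. It was −0.69 from summed reads and −1.23 without *Serpina1b*. The summed Serpina3 ratio of 0.05 was 0.020, 0.12 and 0.079 under the same rescalings and 0.13 without *Serpina3k*. The counts of 3 higher and 4 lower serpins became 0 and 2 with a pseudocount of 1 FPKM (*Serpina1a* and *Serpina1c*), 1 and 0 at 4-fold, and 11 and 10 when counted by the interval. Without the Serpina1 copies, an alternative chosen after the data were seen, 2 were lower, and the median was 0.16 in place of 0.04. With a pseudocount of 0.01 FPKM, no filter, a mean of at least 1 FPKM or at least 20 reads, both counts stayed within 1.5-fold. No direction of a serpin called 2-fold different turned under a pseudocount or scaling. Of the 34 serpins that the naming rule takes, 14 moved outside their counting intervals as TPM. So did 3 at a median ratio of 0 and 4 without the 100 most abundant genes. No paired analysis was possible because each group is 1 library, and no replicate could be left out.

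The limits are those of 2 pools. Differences between mice, dissection and library preparation cannot be told apart from the genotype. *Serpina3j*, *Serpine3*, *Serpina3g* and most clade B genes rest on few reads, and single Serpina1 copies depend on how near-identical reads were divided in a strain other than the reference.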
